A study of Mus musculus with 8 samples.

Results

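The insulin-like growth factor binding proteins are a family of 7 secreted proteins, encoded in the mouse by Igfbp1 to Igfbp7, and their mRNAs were followed in mouse embryonic stem (ES) cells before and after retinoic acid (RA). The members were the non-control array probes whose gene name is Igfbp1 to Igfbp7. This gave 7 of 36406 gene names and 8 of 55681 probes, with 2 probes for Igfbp2 and 1 for every other gene. The family was chosen by the log2 differences between RA and untreated arrays in these same data, Igfbp5 being among the largest increases, so the differences of its members are described here without a test.

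The cells were E14Tg2A.4, a feeder-independent male mouse ES line that carries a disrupted Hprt gene. Total RNA came from 4 untreated samples and from 4 samples exposed to RA for 72 h, each hybridised alone to a 1-colour mouse array (SurePrint G3 8x60K, Cy3). According to the methods, all-trans RA was given at 1 µM in medium without leukemia inhibitory factor, the cytokine that maintains ES cells, and the replicates were biological. A difference between the conditions therefore covers RA and the loss of that factor together, and their parts cannot be told apart. In bulk RNA, fewer cells of a type and less RNA per cell cannot be told apart either.

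IGF1 and IGF2 signal through the IGF1 receptor, a tyrosine kinase, while the IGF2 receptor takes IGF2 up for breakdown. Igfbp1 to Igfbp6 bind both ligands with high affinity in the extracellular space and hold them away from the receptor, until proteases such as pappalysins cleave the binding protein and set the ligand free. Igfbp7 binds IGFs weakly and is grouped with the family for its shared amino-terminal domain. Several members also bind matrix and cell surface proteins and act without IGF.

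Values are log2 signals relative to the 75th percentile of the same array, so that 0 is the level of that percentile. The scanner software marks a spot as well above background or not, and a probe without this mark on an array has only an upper bound there. Between 56.7 and 62.7% of spots were well above background on each array, and none was saturated. All 10 ES cell markers examined, among them Pou5f1, Nanog and Zfp42, were detected on all 4 untreated arrays and fell after RA, by 1.04 to 6.30 on the log2 scale, and all 8 RA response markers, among them Rarb and Cyp26a1, rose by 2.71 to 7.21. The largest of these sizes depend on the processing. In the processed values deposited by the authors, Rarb rose by 5.81 (7.21 here) and Cyp26a1 by 4.79 (6.09 here). Probes differ in brightness for reasons of sequence, so levels were compared between arrays for 1 probe, or for a fixed set of marker probes, and never between genes, and no order of the 7 genes by level is given.

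The family fell into 3 sets. Igfbp2, Igfbp3, Igfbp4 and Igfbp6 were well above background on all 8 arrays and higher on the RA arrays. Igfbp5 was detected at that mark on the 4 RA arrays alone. Igfbp1 and Igfbp7 were well above background on no array. In all, 5 of the 7 genes were at least 1.5-fold higher by their means and 0 were lower, where 16.9% of all genes passed that limit upwards and 29.2% downwards. In the same 5 genes the lowest RA array lay above the highest untreated array, which held for 15.2% of all genes, while 25.2% lay wholly below. These counts rest on the contrast by which the family was chosen, and nothing is read from them. The median log2 difference over all 55681 probes was -0.28.

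**Figure D1:**
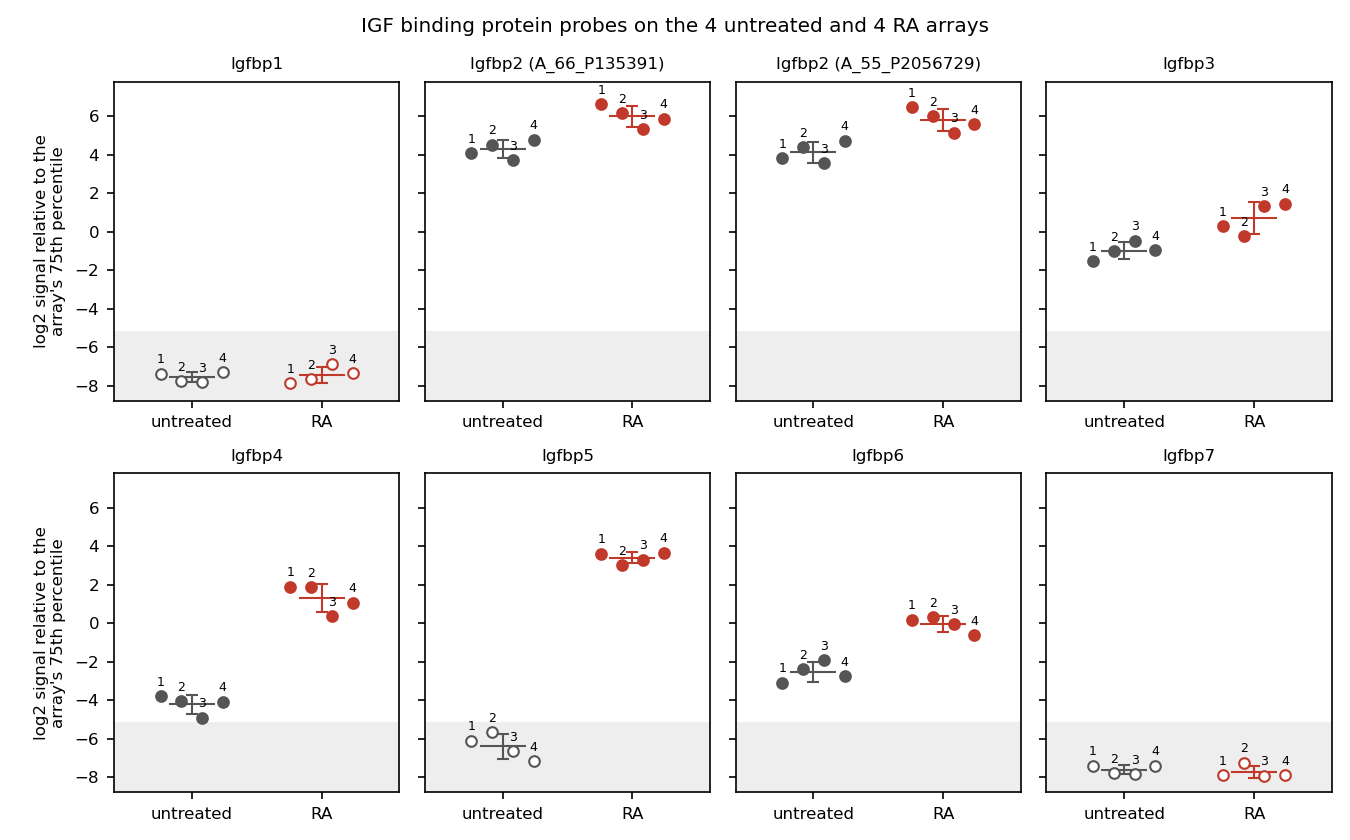
Log2 signal of the 8 IGF binding protein probes relative to each array's own 75th percentile (vertical axis) on the 4 untreated and 4 RA arrays, numbered by replicate, with the mean and SD of each condition as bars. Open points belong to a condition in which no array was well above background, and the grey band lies below the highest detection floor of the 8 arrays. Igfbp2, Igfbp3, Igfbp4, Igfbp5 and Igfbp6 show no overlap between the conditions, and Igfbp1 and Igfbp7 stay within the band.

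Igfbp5 showed the largest difference of the family. Its product is abundant in bone and muscle, where it binds extracellular matrix as well as IGFs. The Igfbp5 probe (A_52_P281702, NM_010518) maps to chr1:72904829-72904888 of the minus strand in the mm9 build. Its log2 signals on untreated replicates 1 to 4 were -6.11, -5.66, -6.65 and -7.17, none of them well above background. On RA replicates 1 to 4 they were 3.61, 3.02, 3.29 and 3.65. The untreated arrays thus sat at the bottom of the scale and the RA arrays about level with each other, far above the 75th percentile. In scanner units the untreated signals lay between 5.15 and 16.9, and the RA signals between 7747 and 14282. Because no untreated array measured the transcript, the difference is a bound. Set against the lowest signal counted as well above background on each untreated array, or the probe's own signal where that was higher, Igfbp5 was at least 455-fold higher after RA (8.83 on the log2 scale). The RA mean was 3.39 ± 0.30 (SD, n = 4), and the untreated signals averaged -6.40 below detection, so that the 9.79 between them is no measured difference. With another background correction (normexp with an offset of 50), which lifts dim signals, the log2 difference was 6.69 (6.83 in the deposited processed values), so the size of the fold, and the bound itself, hold for the scanner's processed signal alone.

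Igfbp4 had the next largest difference. It is an inhibitory binding protein, and its cleavage by pappalysin A releases IGF. The probe (A_52_P257502, NM_010517) lies at chr11:98913334-98913393 of the plus strand (mm9). The log2 signals were -3.81, -4.06, -4.92 and -4.09 on untreated replicates 1 to 4. They were 1.88, 1.86, 0.34 and 1.06 on RA replicates 1 to 4. All 8 arrays were well above background and the RA arrays were more widely spread than those of Igfbp5, RA replicate 3 being the lowest. The means of -4.22 ± 0.48 and 1.29 ± 0.73 (SD, n = 4 each) differed by 5.51 (SE 0.38), a 45.4-fold difference. The log2 difference was 4.23 with normexp and 4.33 in the deposited values.

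The first 30 bases of the 60-base probes of these genes are shown to identify which part of each transcript was read, since each value rests on 1 such stretch. Both come from the scanner files.
Igfbp5 probe, first 30 bases: cacatcacatattactgtagctctctatag
Igfbp4 probe, first 30 bases: gagaagagaaacctcattcttggagtgaga

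Igfbp6, which prefers IGF2 to IGF1, was measured by the probe A_66_P139546 (NM_008344) at chr15:101979852-101979911 of the plus strand (mm9). Its log2 signals were -3.10, -2.38, -1.91 and -2.77 on untreated replicates 1 to 4. On RA replicates 1 to 4 they were 0.19, 0.30, -0.04 and -0.62. The lowest RA array stood well clear of the highest untreated array, which was replicate 3. The means of -2.54 ± 0.51 and -0.04 ± 0.41 (SD, n = 4 each) were 2.50 apart (SE 0.30), or 5.66-fold.

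Igfbp3, the main carrier of IGFs in serum, had the closest approach of the conditions. Its probe (A_52_P253179, NM_008343) lies at chr11:7106594-7106653 of the minus strand (mm9). The log2 signals were -1.53, -1.03, -0.47 and -0.96 on untreated replicates 1 to 4. They were 0.27, -0.23, 1.32 and 1.45 on RA replicates 1 to 4. Untreated replicate 3 and RA replicate 2 were only 0.24 apart, while RA replicates 3 and 4 were well above the rest. The means of -0.999 ± 0.43 and 0.70 ± 0.82 (SD, n = 4 each) differed by 1.70 (SE 0.40), or 3.25-fold.

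A further probe of the array carries the name of an Ensembl transcript, ENSMUST00000135887, and is described on the array as a partial Igfbp3 product. It lies at chr11:7107949-7108008 (mm9) and is no member by name. Its log2 signals were -5.90, -5.86, -3.98 and -5.57 on untreated replicates 1 to 4, with 1 array well above background. They were -4.81, -4.74, -3.18 and -3.10 on RA replicates 1 to 4, all well above background. Its means were 1.37 apart (SE 0.56) and its conditions overlapped, since untreated replicate 3 was above RA replicates 1 and 2. As for the Igfbp3 probe, untreated replicate 3 and RA replicates 3 and 4 were the highest arrays of their conditions.

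Igfbp2, a binding protein of fetal tissues, was read by 2 probes. The probe A_66_P135391 lies at chr1:72898813-72898872 and A_55_P2056729 at chr1:72898677-72898736, both on the plus strand (mm9) and both assigned to NM_008342. For the first, the log2 signals were 4.06, 4.52, 3.72 and 4.78 on untreated replicates 1 to 4. They were 6.62, 6.15, 5.33 and 5.86 on RA replicates 1 to 4. The transcript was thus already far above the 75th percentile in untreated cells, and every RA array was higher still, with RA replicate 3 again the lowest. The second probe gave 3.81, 4.38, 3.56 and 4.71 untreated and 6.47, 6.001, 5.14 and 5.59 after RA. The log2 differences were 1.72 (SE 0.32) and 1.69 (SE 0.34), or 3.29-fold and 3.22-fold. The probes kept almost the same distance on every array, between 0.07 and 0.27, so the spread between arrays of 1 condition was shared by both probes.

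The second Igfbp2 probe is printed whole because the frame from its first base is open up to a stop codon, in capitals, so that it reads the end of a coding sequence. Between its end and the start of the other Igfbp2 probe lie 76 bases.
Igfbp2 probe A_55_P2056729: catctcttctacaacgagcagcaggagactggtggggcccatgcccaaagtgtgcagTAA

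The arrays were scanned on 2 slides, each with 2 arrays of either condition, and the Igfbp2 difference was not the same on both. It was 2.35 within slide 1 and 1.09 within slide 2 for the first probe, and 2.35 and 1.02 for the second. The replicate SDs were 0.47 and 0.54 for the first probe. For the other measured members the within-slide values were closer, at 1.86 and 1.54 for Igfbp3, 5.84 and 5.18 for Igfbp4 and 2.29 and 2.71 for Igfbp6. Igfbp5 was not measured on the untreated arrays of either slide. With 2 arrays of a condition on a slide, the difference between slides was not tested.

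**Figure D2:**
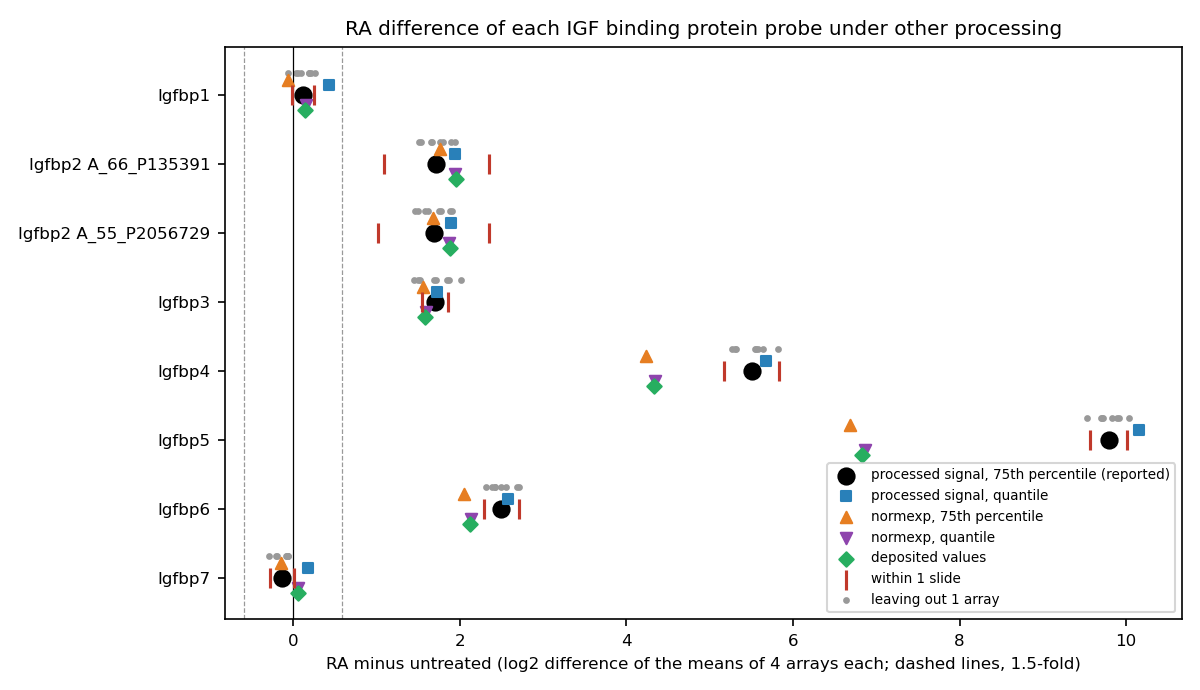
Log2 difference of each IGF binding protein probe, RA minus untreated (horizontal axis), as reported and under other normalisations, background corrections and array subsets, with dashed lines at 1.5-fold. Igfbp5 moves from 9.79 to 6.69 and Igfbp4 from 5.51 to 4.23 with normexp, the Igfbp2 probes differ between slides, all Igfbp5 points rest on untreated signals below detection, and the 4 genes measured in both conditions stay above the 1.5-fold line throughout.

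Igfbp1, a liver and decidual product that responds to insulin, and Igfbp7, abundant in vascular and mesenchymal tissue, were well above background on no array. The Igfbp1 probe (A_51_P447545) lies at chr11:7102442-7102501 (mm9). On 6 of the 8 arrays for Igfbp1 and 7 for Igfbp7, the scanner had replaced the signal by a surrogate value. No fold is given for either, and their levels are bounded from above in both conditions.

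Arrays of 1 condition differed from each other, and their order was not the same for every member. On the RA arrays both Igfbp2 probes and Igfbp4 had the order replicate 1, 2, 4, 3 from the highest down, and Igfbp6 was also higher on replicates 1 and 2 than on 3 and 4. Igfbp3 ran the other way, with replicates 4 and 3 above 1 and 2. On the untreated arrays replicate 3 was the lowest for Igfbp2 and Igfbp4 and the highest for Igfbp3 and Igfbp6. RA replicate 3 deviated by -0.94 from the RA mean for Igfbp4 and by 0.62 for Igfbp3. Igfbp5 varied least after RA, within 0.63 from lowest to highest. With 4 arrays a condition no correlation was computed.

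**Figure D3:**
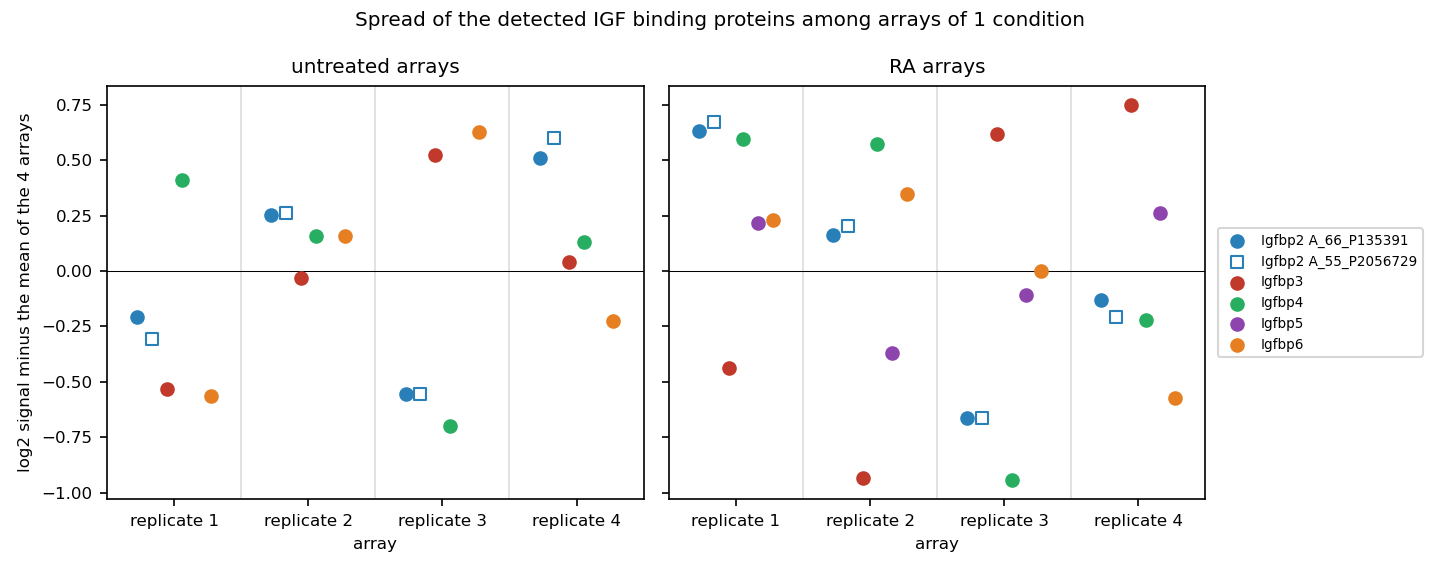
Log2 signal of each detected probe minus the mean of the 4 arrays of its condition (vertical axis), for the untreated and the RA arrays by replicate. Untreated arrays hold no Igfbp5 points because none was well above background. On the RA arrays Igfbp2 and Igfbp4 lie above their mean on replicates 1 and 2 and Igfbp3 on replicates 3 and 4.

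Marker genes of other cell types moved between the conditions, as the members did. Of 10 fibroblast markers 8 rose, of 8 smooth muscle markers 7 rose, and of 12 markers of primitive and parietal endoderm all rose. These counts stand beside 13.9% of all genes called higher and 22.1% called lower. Decorin, a matrix proteoglycan (Dcn), rose by 8.07 (6.33 with normexp) and smooth muscle actin (Acta2) by 9.19. Of 10 neural markers 4 rose, Tubb3 fell by 2.22, and Pax6, Sox1, Map2 and Neurog2 were among those that did not pass. None of 8 endothelial markers rose and 4 were called lower, of which Esam, whose conditions overlapped, and Cldn5 were under the fold limit in the deposited values (-0.35 and -0.41), while Cdh5 and Emcn were well above background on no array. Of 8 hepatocyte markers 2 rose, Fgb and Ttr. Ttr is also counted in the endoderm list, by the same probe, so the sums of both lists below include it. Alb, Apoa1 and Cyp3a11 were well above background on no array. Summed over each list, in multiples of the 75th percentile, fibroblast markers were between 1.51 and 2.51 on untreated arrays and between 34.0 and 51.9 on RA arrays. Smooth muscle markers went from between 7.45 and 9.76 to between 261 and 477, and endoderm markers from between 131 and 180 to between 340 and 399. Neural markers lay between 6.30 and 10.02 and then between 12.6 and 14.1, endothelial markers between 3.05 and 4.14 and then between 1.89 and 2.59, and hepatocyte markers between 0.203 and 0.350 and then between 0.686 and 1.85.

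Among the RA arrays, the summed smooth muscle markers were 477, 437, 292 and 261 on replicates 1 to 4, and the fibroblast markers 50.5, 51.9, 34.0 and 39.7. Both were higher on replicates 1 and 2, like Igfbp2, Igfbp4 and Igfbp6. So were the summed endoderm markers (399, 390, 340 and 343) and the ES cell markers given below. This order was thus not particular to smooth muscle and fibroblast markers. By the mean log2 signal the endoderm markers lacked it (2.71, 2.11, 2.28 and 2.21). The RA response markers had summed levels of 113, 126, 227 and 201, higher on replicates 3 and 4, like Igfbp3. Neural markers were also higher there by the mean log2 signal (-1.90, -1.82, -1.13 and -1.10), but not by their sums. Igfbp5 followed neither order, with deviations from its RA mean of 0.22, -0.37, -0.11 and 0.26 on replicates 1 to 4. ES cell markers remained at 87.8, 134, 63.0 and 57.1, against 525 to 725 on untreated arrays. Such sums are carried by the brightest probes. By the mean log2 signal, ES cell markers went from between 5.22 and 5.61 to 1.58, 2.47, 1.24 and 0.79 on RA replicates 1 to 4, and endoderm markers from between -1.17 and -0.51 to between 2.11 and 2.71. The part of these markers, and of the cells they stand for, in the levels of the IGF binding proteins was not tested.

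The promoters of the 2 members with the largest differences are shown, as the stretches next to their annotated transcript starts. Which start is used in these cells was not measured. They are the 250 bases before the RefSeq transcript start (GRCm38.p6), chr1:72874866-72875115 of the minus strand for Igfbp5 and chr11:99040994-99041243 of the plus strand for Igfbp4. Capitals mark matches to TATTTAA in Igfbp5 and TATAAA in Igfbp4.
Igfbp5 promoter: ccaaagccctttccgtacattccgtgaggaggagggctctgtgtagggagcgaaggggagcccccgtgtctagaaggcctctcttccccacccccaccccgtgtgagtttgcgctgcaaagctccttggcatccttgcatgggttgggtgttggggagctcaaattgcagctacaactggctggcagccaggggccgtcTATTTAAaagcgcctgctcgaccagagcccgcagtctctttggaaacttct
Igfbp4 promoter: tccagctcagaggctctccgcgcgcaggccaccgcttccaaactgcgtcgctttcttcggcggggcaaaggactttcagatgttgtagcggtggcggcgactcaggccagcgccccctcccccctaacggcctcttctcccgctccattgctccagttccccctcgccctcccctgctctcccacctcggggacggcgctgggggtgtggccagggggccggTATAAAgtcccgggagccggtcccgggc

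All 7 genes were found in the RefSeq promoter table, with 8 starts because Igfbp2 has 2. Motifs were searched as letters on both strands of the same 250 bases in 32851 promoters. The retinoic acid receptor hexamer AGGTCA was found in none of the 8 and in 14% of all promoters. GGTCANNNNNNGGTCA, which repeats its last bases in the same direction, was found in none of the 8 and in 0.0761% of all. TATAAA, found in 12.4% of all promoters, matched Igfbp4 between 28 and 23 bases before the start and Igfbp6 between 148 and 143 bases before it. TATTTAA, in 4.18% of all, matched Igfbp5 between 51 and 45 bases before the start. The GC box GGGCGG, in 32.7% of all, matched the first Igfbp2 start at 3 places and Igfbp7 at 4. CCAAT, in 33.8% of all, matched Igfbp6 at 2 places, and CACGTG, in 6.02%, matched that Igfbp2 start at 1 place. The G and C share of the 8 promoters ran from 49.6% in Igfbp6 to 74.0% in Igfbp7, with a median of 52.4% over all. These are matches of letters within 250 bases and say nothing of binding.

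By gene order, the family holds 2 neighbouring pairs. Igfbp2 and Igfbp5 lie next to each other on chromosome 1 on opposite strands, with 5956 bases between the nearest probes, and both were higher on every RA array. The outer neighbours Rpl37a, a ribosomal protein gene, and Tnp1 were not called by limma (log2 differences of -0.44 and -0.57, adjusted p = 0.0535 and 0.0816). Igfbp1 and Igfbp3 lie next to each other on chromosome 11, with 4092 bases between their probes, and only Igfbp3 was detected. Its outer neighbours were not called either, with log2 differences of 0.59 for Adcy1 (limma adjusted p = 0.139) and 0.14 for Tns3 (limma adjusted p = 0.430). Beside Igfbp4, Top2a differed by -0.54 (limma adjusted p = 0.0403), under the fold limit, and Tns4 was called higher (limma adjusted p = 0.0044) with 2 RA arrays and no others well above background. Beside Igfbp6, Spryd3 was not called (limma adjusted p = 0.400) and Soat2 fell by 1.55 (limma adjusted p = 0.00621).

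The 5 genes whose profile over the 8 arrays lay nearest to that of Igfbp5, by the root mean square difference after centring and among 14202 candidates, were Robo2 (0.755), Vtn (0.819), Acta2 (0.833), Igf2 (0.916) and Ccdc80 (0.949). Igf2 is a ligand of Igfbp5 and vitronectin, the product of Vtn, is a matrix protein known to bind it. Robo2 is an axon guidance receptor. Igfbp5 itself was undetected on the untreated arrays, as were Robo2 and Vtn, so these distances rest on dim signals and no order is read from them. The profiles were centred but not scaled, so genes with very large RA increases lie near Igfbp5 by construction. That is the contrast by which the family was chosen, and no shared function is read from the list. With normexp the log2 differences were 6.69 for Igfbp5, 4.70 for Vtn, 8.71 for Acta2 and 6.46 for Igf2. No measured member was lower after RA, and so no such list was drawn for a decrease.

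The rest of the pathway was read from 6 lists of 69 genes in all, which were written with earlier results of these arrays known. Each gene was represented by its brightest probe. By limma with Benjamini-Hochberg adjustment over all probes, at an FDR of 0.05 and a change above 1.5-fold, 30 genes rose, 7 fell and 32 were not called, 5 of them well above background on no array. That is 43.5% higher and 10.1% lower, against 13.9% and 22.1% of all 36406 genes, against 12.9% and 21.6% of all probes, and against 17.8% and 27.1% of the 23804 genes measured in both conditions. The excess of lower genes over the whole array depends on the scaling, since in the deposited values 6271 probes were called higher and 6575 lower, with a median difference of -0.01 and with 27 and 4 genes of the lists called. The median log2 difference as reported was 0.28 over the lists and -0.28 over all genes.

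**Figure D4:**
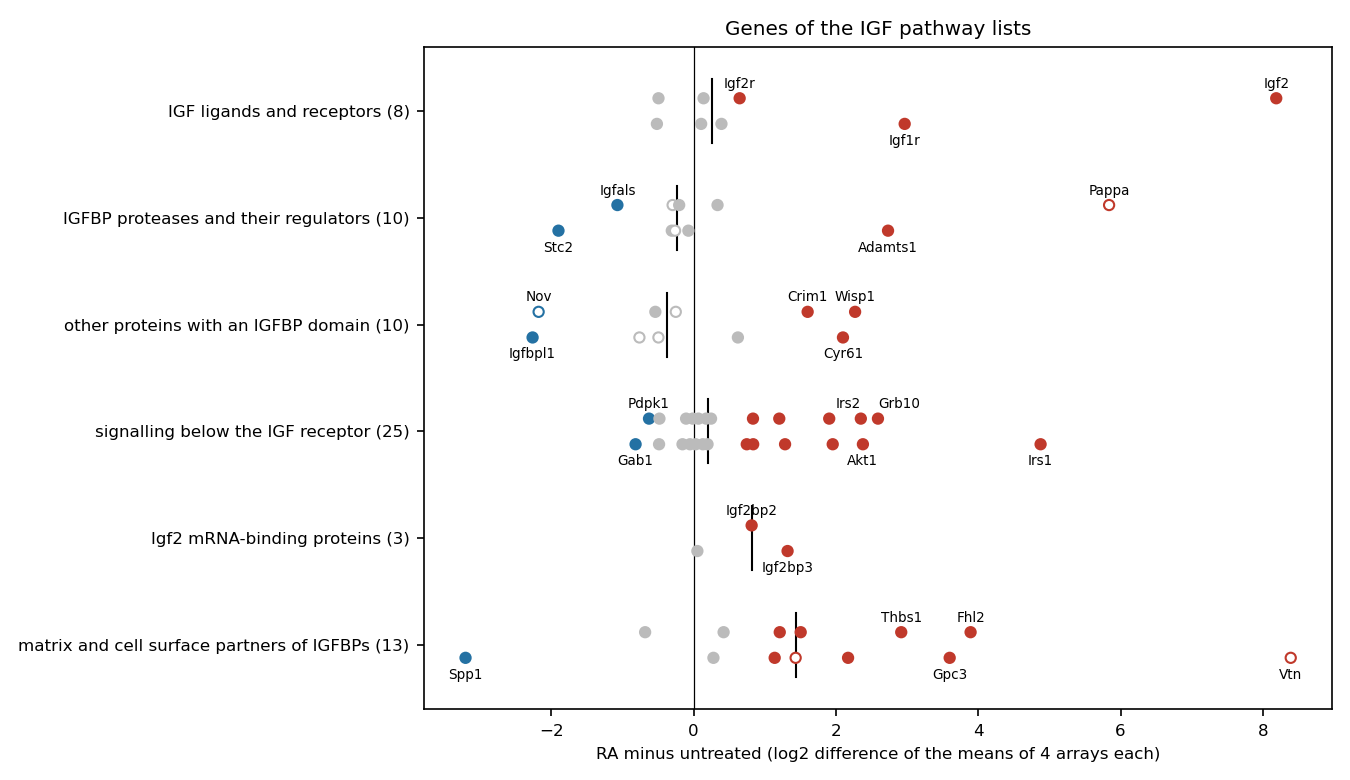
Log2 difference, RA minus untreated (horizontal axis), of the 69 genes of the IGF pathway lists, with the number of genes of each list in parentheses and its median as a vertical line. Red points rose and blue points fell by limma at an FDR of 0.05 and above 1.5-fold, grey points were not called, and open points were well above background on no array of at least 1 condition, so that their place is no measured size. Igf2, Irs1 and the open points of Pappa and Vtn lie farthest to the right.

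Of the 8 ligands and receptors, 3 rose. Igf2, the fetal ligand, had log2 signals of -4.33, -4.96, -4.33 and -5.20 on untreated replicates 1 to 4, of which 3 were well above background. They were 3.76, 2.97, 3.62 and 3.57 on RA replicates 1 to 4. The difference of 8.19 (SE 0.26, limma adjusted p = 9.01e-07) set the RA arrays far from any untreated array, and with normexp it was 6.46. Igf1r, the signalling receptor, was at 0.01, 0.36, -1.18 and 0.12 and then at 2.92, 2.72, 2.63 and 2.90, and rose by 2.97 (SE 0.31, limma adjusted p = 0.000114). Igf2r, the clearance receptor, rose by 0.65 (SE 0.19, limma adjusted p = 0.0276), just above the fold limit. The insulin genes and receptors were not called, with log2 differences of -0.52 for Ins1, 0.14 for Ins2, 0.39 for Insr and 0.11 for Insrr (limma adjusted p = 0.0552, 0.633, 0.0826 and 0.838). Another probe of Insr was called higher, by 1.11 (limma adjusted p = 0.000389).

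Igf1 gave a different answer by probe. Its brightest probe, which stands for it in the list, is assigned to transcript variant 2 (NM_184052, chr10:87378456-87378515, mm9). It was at -1.30, -1.13, -1.55 and -1.34 untreated and at -1.79, -1.79, -1.95 and -1.76 after RA. All RA arrays were lower, by 0.49 in the mean (limma adjusted p = 0.0234), which is under the fold limit. The other 4 probes are assigned to transcript variant 1 (NM_010512), and 3 of them were called higher. The last of them, at chr10:87399581-87399640, was at -7.17, -5.34, -7.72 and -6.64 untreated, with 1 array well above background, and at -3.06, -2.99, -2.21 and -1.89 after RA, a log2 difference of 4.18 (limma adjusted p = 0.000227). The probes at chr10:87393561-87393620 and chr10:87393581-87393640 share 40 bases and differed by 2.11 and 2.18 (limma adjusted p = 0.000927 and 0.000574). The remaining probe, at chr10:87395924-87395983, lies between these places and differed by 0.16 (limma adjusted p = 0.546). With normexp the difference of the last probe was 1.45, and those of the overlapping pair were 0.89 and 1.10. The direction for Igf1 thus depended on the probe, and no direction is given for the gene.

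**Figure D5:**
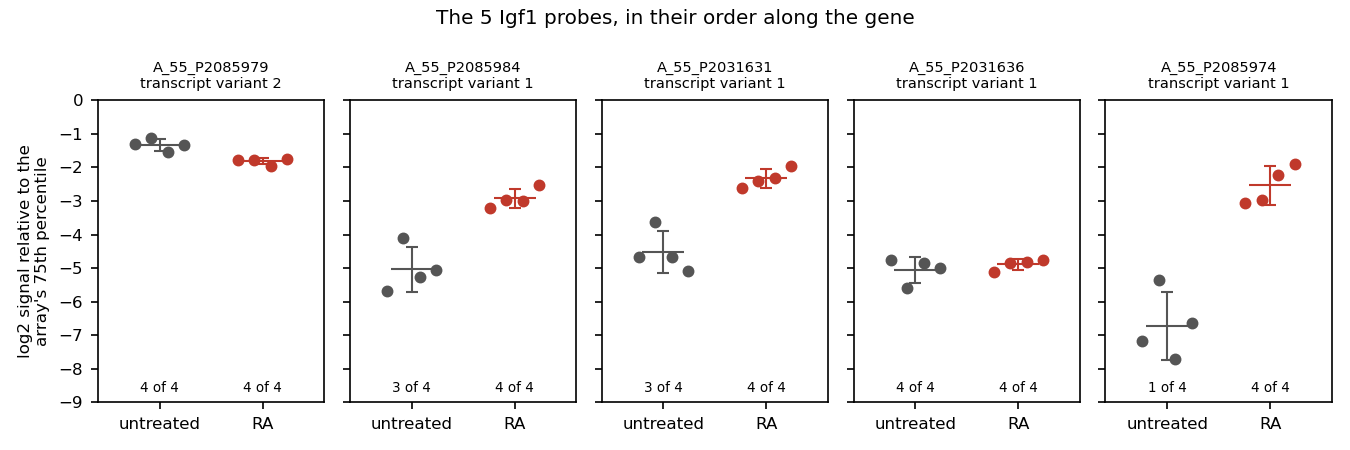
Log2 signal of the 5 Igf1 probes relative to each array's own 75th percentile (vertical axis) on the 4 untreated and 4 RA arrays, with the mean and SD of each condition as bars and the number of arrays well above background below them. The variant 2 probe is lower after RA by 0.49, and 3 of the 4 variant 1 probes are higher, by 2.11 to 4.18. The 4.18 belongs to a probe with 1 untreated array well above background, so it is no measured size, and it is 1.45 with normexp.

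Of 10 proteases of the binding proteins and their regulators, 2 rose and 2 fell. Pappa, the pappalysin that cleaves Igfbp4 and Igfbp5, lacked the mark on every untreated array and carried it on all 4 RA arrays, and was at least 31.5-fold higher (limma adjusted p = 8.42e-06). Its means were -6.25 ± 0.75 and -0.41 ± 0.35 (SD, n = 4 each), and with normexp its log2 difference was 3.13, under that bound. Adamts1, a metalloprotease of the ADAMTS family, rose by 2.73 (SE 0.37, limma adjusted p = 0.000444). Stc2, a stanniocalcin that inhibits pappalysins, fell by 1.90 (SE 0.43, limma adjusted p = 0.00725). Igfals, which joins the serum complex of IGF and Igfbp3, fell by 1.07 (limma adjusted p = 0.000927), a call lost with normexp. Htra1, which also cleaves IGF binding proteins, was at 2.15 ± 0.77 and 1.95 ± 0.84 (SD, n = 4 each) and was not called (limma adjusted p = 0.748). Stc1 and Adam28 were well above background on no array.

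Of 10 further genes whose products share the IGFBP domain, 3 rose. Wisp1 rose by 2.27, Cyr61 by 2.10 and Crim1 by 1.60 (limma adjusted p = 0.000591, 4.91e-05 and 0.00179). The first pair are matricellular proteins of the CCN family, and Crim1 is a membrane protein that binds BMPs. Igfbpl1, a secreted protein like the IGFBPs, fell by 2.26 (limma adjusted p = 0.000731). Nov, another CCN protein, was well above background on 2 untreated arrays and on no RA array. It was called lower (limma adjusted p = 0.000132), a call lost with normexp. Since not every untreated array carried the mark, no size or bound of its fall is given. Ctgf, the best known CCN protein, was at 4.89 ± 0.49 and 4.35 ± 0.60 (SD, n = 4 each) and was not called (limma adjusted p = 0.223).

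Of 25 genes that act below the IGF1 receptor, 11 were called higher and 2 lower. Of the 11, Foxo4, whose conditions overlapped, and Tsc2 lost their call with normexp and in the deposited values. Irs1 and Irs2, the docking proteins of the receptor, rose by 4.87 (SE 0.31) and 2.35 (SE 0.19), with limma adjusted p = 9.96e-06 and 2.69e-05. A fainter Irs1 probe, well above background after RA alone, was called in the same direction. Grb10, an adaptor that dampens the receptor, rose by 2.59 (limma adjusted p = 8.35e-06) and the kinase Akt1 by 2.38 (limma adjusted p = 7.19e-06). Gab1, a docking protein, and Pdpk1, the kinase that activates Akt, fell by 0.82 and 0.63 (limma adjusted p = 0.0094 and 0.00772). The call of Pdpk1 was lost with quantile normalisation and that of Gab1 was kept under every normalisation. Mtor and Shc1 were among the 12 that were not called.

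Of 3 genes for Igf2 mRNA-binding proteins, which bind the Igf2 message, Igf2bp3 rose by 1.32 and Igf2bp2 by 0.82 (limma adjusted p = 0.00165 and 0.0218), while Igf2bp1 differed by 0.05 (limma adjusted p = 0.830).

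Of 13 matrix and cell surface partners of the binding proteins, 9 were called higher and 1 fell. Among the 9, Cd93 was well above background on 1 RA array alone, its conditions overlapped and its call was lost with normexp and in the deposited values. Vtn was not well above background before RA and was at least 90.2-fold higher after RA (limma adjusted p = 3.04e-07). With normexp the log2 difference of Vtn was 4.70, under that bound as well. Fhl2, a LIM protein that binds Igfbp5, rose by 3.89, the glypican Gpc3, which binds growth factors at the cell surface, by 3.60, and the matrix protein Thbs1 by 2.92 (limma adjusted p = 1.5e-05, 1.11e-05 and 3.28e-05). Spp1, the matrix protein osteopontin, fell by 3.20 (limma adjusted p = 5.45e-05). Fn1, encoding fibronectin, was at 6.52 ± 0.32 and 5.84 ± 0.67 (SD, n = 4 each) and was not called (limma adjusted p = 0.139), but was called lower with the replicate number as a block. For Lrp1, the brightest probe rose by 1.21 (limma adjusted p = 0.000232) and another, assigned to a cDNA clone, fell by 1.36 (limma adjusted p = 0.0314). Over the 6 lists, 23 genes had more than 1 probe, with 34 further probes, and Lrp1 was the only gene with probes called in opposite directions.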

How the data were processed

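Total RNA of 4 untreated and 4 RA samples was hybridised to 8 arrays, and the deposited scanner files hold 1-colour intensities of 59305 non-control spots, made with Agilent Feature Extraction 10.7.3.1 (background subtraction, spatial detrending and surrogate values for low spots). The authors also deposited processed log2 values with a median of 6.89 on every array, whose background correction and normalisation are not given in the sources used here. The flags well above background and outlier per spot were deposited as other values of 0 or 1. The processed intensity was taken as log2 minus the 75th percentile of the array, between 124 and 145 outlier spots per array were left out, and spots of 1 probe were averaged. Fits used limma 3.58.1 in R 4.3.3 (lmFit, eBayes, Benjamini-Hochberg over 55681 probes, FDR 0.05, above 1.5-fold), of which only the FDR and fold limits come from the methods of the study, and were tested on simulated data. A bound compares the brighter mean with the detection floor, and is given only where every array of the brighter condition was well above background. Named were all IGFBP probes, all ligands and receptors, of each other list up to 4 called genes in either direction, and the 5 profiles nearest to Igfbp5, those well above background on at least 3 arrays of a condition. Other genes named for context were chosen after their values were seen. The members and lists were chosen with earlier results of these data known. Replicate numbers come from the sample titles. Same-numbered arrays deviated together from their condition means, with r between 0.104 and 0.189 over 27508 probes and up to 0.142 for arrays of different numbers. Every same-numbered r was above 0.1. A fit with the replicate number as a block was planned and run as an alternative, and all standard errors and adjusted p-values given are from the fit without that block. Coordinates are mm9 for probes and GRCm38.p6 (RefSeq) for promoters. The number of arrays limits the precision. Some items are not reported here.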

Additional observations from a re-analysis of the deposited data

Results flagged for a closer look

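In 76 groups of 4 arrays of the members and named pathway genes, 6 held an array that stood apart from the other 3 by Dixon's test, where chance gives about 1 in 20 groups. The only member was Igfbp7, at -7.26 on RA replicate 2 against -7.93 to -7.89 on the other RA arrays, all of them not well above background. Since 7 of the 8 Igfbp7 values are surrogates set by the scanner software, nothing is read from its distance. A pair of further values came from the same array: Crim1 was at -0.80 against -0.32 to -0.22, and Igfbpl1 at -2.40 against -3.82 to -3.64. On RA replicate 3, the variant 2 probe of Igf1 was at -1.95 against -1.79 to -1.76, and Pdpk1 at 2.89 against 2.61 to 2.63. On untreated replicate 3, Gpc3 was at 0.72 against 1.36 to 1.43.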

How the results depend on the processing

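The counts of 5 IGF binding protein genes past 1.5-fold higher and 0 lower held under every normalisation, background correction, detection filter and block tried, with the mean of all probes of a gene, and without any 1 array. With normexp, normexp and quantile normalisation, and the deposited values, the log2 difference of Igfbp4 was 4.23, 4.35 and 4.33 (reported 5.51) and that of Igfbp5 6.69, 6.86 and 6.83 (reported 9.79). These settings add an offset to dim signals or, for the deposited values, gave nearly the same numbers as those that do. For Igfbp2, the values within slide 1 and slide 2 were 2.35 and 1.09 for A_66_P135391 and 2.35 and 1.02 for A_55_P2056729, and the cause was not tested. Igfbp7, on no array well above background, gave 0.18 with quantile normalisation. The 7 pathway genes called lower became 4 with normexp and quantile normalisation and 4 with the deposited values, of the 30 called higher 27 kept their call under every normalisation, and none was called in the opposite direction. Over the whole array 7196 probes were higher and 12044 lower. With treat against 1.5-fold these were 4171 and 5728, and 6600 and 6575 were lower with normexp and quantile normalisation and with the deposited values. The median difference of all probes moved from -0.28 to -0.0024 with quantile normalisation. With the replicate block the differences of the members were the same, as they must be where each replicate number holds 1 array of either condition. Their standard errors were not. They were 0.20 for Igfbp4 (0.38 without the block), 0.28 for Igfbp3 (0.40) and 0.27 for Igfbp6 (0.30). For the Igfbp2 probes they were 0.26 and 0.30 (0.32 and 0.34). They were somewhat larger for Igfbp1, Igfbp5 and Igfbp7, which rest on signals below detection. With the block 30 pathway genes were higher and 8 lower, Fn1 being added. Over the whole array 7223 and 12161 probes were called. Leaving out each array in turn gave 5.27 to 5.82 for Igfbp4, 2.31 to 2.71 for Igfbp6, 1.45 to 2.01 for Igfbp3, 1.51 to 1.94 and 1.46 to 1.91 for the Igfbp2 probes, 28 to 29 pathway genes higher and 6 to 8 lower. Signal near background limits Igfbp1, Igfbp7 and the untreated level of Igfbp5, for which only bounds can be had.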

Other observations

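By the same measure of profile likeness as for Igfbp5, chosen here after the values were seen, the genes nearest to Igfbp4 over the 8 arrays were Nhsl2 (root mean square difference 0.309), Nnat (0.370) and Filip1l (0.385). Nnat, neuronatin, is an imprinted gene, as is Igf2. Nearest to Igfbp2 were Pfkfb1 (0.201), a regulator of glycolysis, Spats2l (0.232) and P4ha1 (0.241), a collagen prolyl hydroxylase. Nearest to Igfbp3 were the BMP receptor Bmpr1b (0.212), Klhl29 (0.239) and Adra2c (0.254), and nearest to Igfbp6 were Slco3a1 (0.202), Atxn1 (0.232) and Clcn5 (0.251).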
